A study of Mus musculus with 32 samples.

Results

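Hepatocytes along the path from the portal tract to the central vein of a liver lobule carry out different tasks, and the cells around the central vein are set apart by Wnt ligands that endothelial cells of that vein release. Wnt signalling stabilizes beta-catenin, which with TCF/LEF factors switches on genes for glutamine synthesis, drug oxidation and feedback on Wnt itself, so the expression of these genes is a textbook readout of pericentral identity. Pericentral genes were measured here by RNA-Seq in the liver of mice with and without *Cyp2c70*, the enzyme that makes the hydrophilic muricholic acids of rodents, and with and without an inhibitor of bile acid reabsorption. The genes were taken by name from a fixed set of 10 that was chosen with earlier results of these data known. Shares of all genes given beside them below are therefore a description and not independent support. All 10 were present among the 54532 genes of the table of counts. They are *Glul*, *Oat* and *Slc1a2* for glutamine and glutamate handling, *Lgr5* and *Axin2* for Wnt signalling, *Cyp2e1* and *Cyp1a2* for drug oxidation, and *Rgn*, *Gulo* and *Lect2*, a group of enzymes and a secreted protein made by hepatocytes.

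Frozen liver tissue came from 32 C57BL/6 mice killed at 12 weeks of age, 4 in each of 8 groups formed by sex, genotype and diet. WT and *Cyp2c70* KO mice, a CRISPR/Cas9 line that lacks exon 2 of the gene in every tissue and descends from edited founder mice, received chow or chow with 0.006% SC-435. SC-435 is an inhibitor of the ileal bile acid transporter (IBAT), given at about 11 mg/kg/day from 3 weeks after weaning as the labels state it. Libraries were made from polyadenylated RNA, and no batch is named in the labels. The RNA comes from whole tissue, so fewer pericentral hepatocytes and less RNA of a gene in each of them cannot be told apart.

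Each library held 36476021 to 44771350 counted reads. Levels are given as CPM (TMM-normalized counts scaled to a common library size). Differences are log2 fold changes from the quasi-likelihood test of edgeR, with p-values adjusted by Benjamini-Hochberg across the genes that passed the filter. Called genes are those with an adjusted p under 0.05. *Cyp2c70* itself was lower in every KO mouse than in every WT mouse of the same sex and diet, at 151 to 176 CPM in chow-fed KO females against 585 to 838 CPM in WT females. Replicate 1 of the chow-fed WT males stood apart, with a TMM factor of 0.622 and 14 hepatocyte genes of all zones summing to 232805 CPM against 95546 to 105755 CPM in the other 3 mice. Replicate 4 of the chow-fed KO males also differed, with cholangiocyte markers summing to 1249 CPM against 205 to 554 CPM in the other KO males. Below, some male values are also given without WT replicate 1 and, for SC-435 in KO males, without KO replicate 4. Single-gene values of KO against WT males on chow without KO replicate 4 are not given.

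In chow-fed females, 6 of the 10 genes fell in KO mice and 0 rose, while 14.9% of the 16205 genes tested were called in either direction and 5.05% were called lower. *Glul*, *Slc1a2*, *Lgr5*, *Cyp2e1*, *Gulo* and *Lect2* were the genes that fell, by 0.50 to 0.88 on the log2 scale. All 10 log2 fold changes were negative, with a median of -0.58 against -0.02 over all genes. In the same mice 14 hepatocyte genes of all zones summed to 77117 to 97406 CPM in KO and 116502 to 144507 CPM in WT females, and when libraries were scaled to those genes, *Glul* alone of the 6 stayed called. The median of the 10 was then -0.20 against 0.36 over all genes. SC-435 raised 6 of the 10 in KO females, *Glul*, *Oat*, *Slc1a2*, *Cyp1a2*, *Gulo* and *Lect2*, where 17.8% of 16332 genes were called and 8.56% were called higher. The 10 fold changes had a median of 0.59 against -0.02 over all genes. Both comparisons use the same 4 chow-fed KO females, so a low value in those mice moves them in opposite directions.

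In KO against WT males on chow 0 of the 10 were called, although 4 had an unadjusted p under 0.05 in edgeR and all 10 fold changes were negative with TMM (median -0.59 against 0.04 over all genes, of which 1.08% were called). The median was -0.22 against 0.29 over all genes with library size alone and -0.12 against 0.34 with hepatocyte scaling. DESeq2 and limma's voom with quality weights each called 3 lower, *Slc1a2*, *Cyp2e1* and *Cyp1a2*, where they called 6.82% and 15.3% of all genes. Without WT replicate 1, edgeR called *Slc1a2* and *Cyp1a2*, 2 of the 10, and 7.3% of all genes, and *Lect2* then had a positive value (0.22, adjusted p = 0.321). Of the 10, 4 did not overlap between the male genotypes, against 14.6% of all genes. In KO males, SC-435 raised *Oat*, *Slc1a2* and *Glul*, 3 of the 10, with 17.2% of 15984 genes called in either direction and 8.8% called higher. Treated and chow-fed KO males did not overlap for 6 of the 10, against 25.9% of all genes. The difference between the sexes in the genotype effect on chow was tested as an interaction and passed for 0 of the 10 genes in edgeR and DESeq2 and for 1 with voom, with 0 at an unadjusted p under 0.05 in edgeR. The share of all genes called was 0.0235% in edgeR, 0.452% in DESeq2 and 3.25% with voom.

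**Figure D1:**
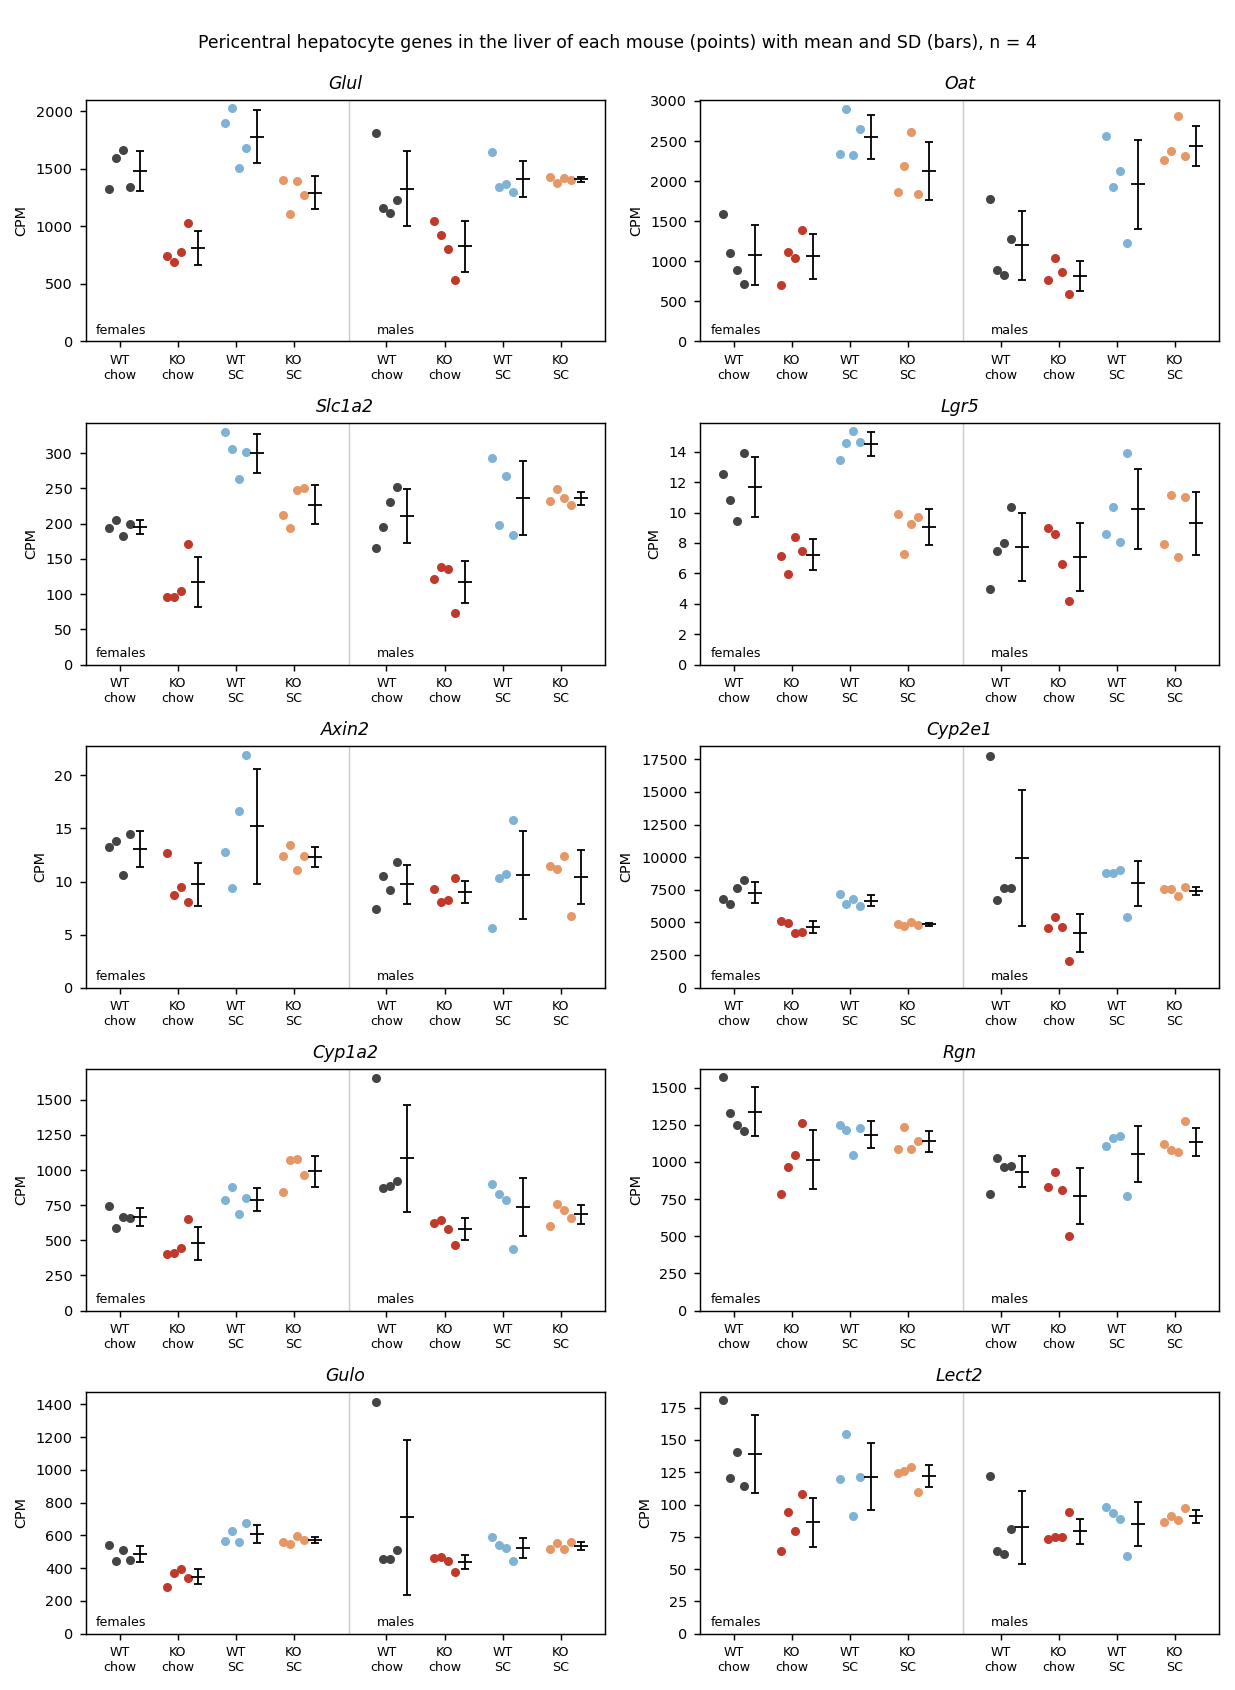
CPM (linear axis from 0) of the 10 genes in each of 32 livers, with females left and males right of the grey line. Points are mice and the bars beside them are the mean and SD of 4 mice. *Glul* and *Slc1a2* are lowest in the KO mice on chow (red), *Oat* is highest in the SC-435 groups (SC), and replicate 1 of the chow-fed WT males is the high black point for *Cyp2e1*, *Cyp1a2* and *Gulo*.

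Upstream sequence was available for 7 of the 10 genes, *Glul*, *Oat*, *Slc1a2*, *Axin2*, *Cyp2e1*, *Cyp1a2* and *Lect2*, as the 250 bases before the RefSeq start in GRCm38.p6. It was searched on both strands for CTTTGAT (reverse complement ATCAAAG), a word that TCF/LEF factors recognize, and other forms of their site were not searched beyond the shorter word below. That word was present in 2 of the 7, *Slc1a2* and *Lect2*, and in 3.21% of 32851 promoters of the same length. The shorter CTTTGA, which every CTTTGAT contains, was found in 4 of the 7, these and *Cyp2e1* and *Cyp1a2*, against 13.8% of promoters. Sequences of the 3 genes of glutamine and glutamate handling and of *Lect2* are shown because the glutamine genes rose with SC-435 in KO mice of both sexes and *Slc1a2* and *Lect2* hold the word, which is in capitals. Each reads 5′ to 3′ on the strand of its gene, *Glul* at chr1:153899679-153899928 (plus), *Oat* at chr7:132576399-132576648 (minus), *Slc1a2* at chr2:102706188-102706437 (plus) and *Lect2* at chr13:56548539-56548788 (minus).
Glul: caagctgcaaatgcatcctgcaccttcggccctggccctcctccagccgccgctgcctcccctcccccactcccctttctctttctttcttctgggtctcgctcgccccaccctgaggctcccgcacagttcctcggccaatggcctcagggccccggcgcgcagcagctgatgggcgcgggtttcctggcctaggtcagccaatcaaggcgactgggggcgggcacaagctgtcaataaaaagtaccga
Oat: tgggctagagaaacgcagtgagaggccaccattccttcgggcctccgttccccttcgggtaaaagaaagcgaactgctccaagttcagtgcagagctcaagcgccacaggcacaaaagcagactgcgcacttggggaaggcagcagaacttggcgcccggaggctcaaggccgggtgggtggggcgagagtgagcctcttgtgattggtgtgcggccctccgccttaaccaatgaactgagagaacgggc
Slc1a2: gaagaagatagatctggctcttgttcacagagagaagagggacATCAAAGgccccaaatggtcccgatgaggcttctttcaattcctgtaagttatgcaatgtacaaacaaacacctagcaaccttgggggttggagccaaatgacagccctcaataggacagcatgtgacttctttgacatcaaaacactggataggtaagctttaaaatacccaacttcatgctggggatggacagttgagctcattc
Lect2: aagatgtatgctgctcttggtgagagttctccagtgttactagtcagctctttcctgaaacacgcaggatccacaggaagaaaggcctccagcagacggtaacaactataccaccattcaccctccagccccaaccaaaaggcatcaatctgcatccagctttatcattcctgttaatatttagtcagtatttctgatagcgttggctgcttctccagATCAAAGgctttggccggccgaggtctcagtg
In *Slc1a2* the word spans positions -207 to -201 counted from the RefSeq start, which is itself 47779 bases inside the gene as the count table bounds it. In *Lect2* it spans positions -32 to -26. A match is a description of these letters, and binding was not measured.

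*Glul* (ENSMUSG00000026473, chr1:153899944-153909723, plus strand) encodes glutamine synthetase, which captures the ammonia that escapes the urea cycle and is confined to a narrow rim of cells around the central vein. In females on chow its level was 1327, 1594, 1661 and 1339.6 CPM in the WT mice and 744, 687, 781 and 1027 CPM in the KO mice. The groups did not overlap, and KO replicate 4 was the highest of its group. *Glul* fell in KO mice (log2 fold change -0.88, standard error 0.15, adjusted p = 0.00501), which is a 1.84-fold lower level. On SC-435 the WT females were at 1898, 2024, 1508 and 1682 CPM and the KO females at 1402, 1104, 1396 and 1271 CPM. *Glul* rose with SC-435 in KO females (log2 fold change 0.68, standard error 0.14, adjusted p = 0.0117), and every treated KO mouse was above every KO mouse on chow. It remained lower than in treated WT females (log2 fold change -0.46, standard error 0.11, adjusted p = 0.0241). Treated KO females and WT females on chow overlapped (-0.20, adjusted p = 0.255).

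In males on chow *Glul* was at 1809.6, 1157, 1112 and 1231 CPM in WT and 1049, 924, 801 and 535 CPM in KO mice, again without overlap between the groups, although the difference was not called (log2 fold change -0.65, standard error 0.26, adjusted p = 0.274) and was -0.48 without WT replicate 1 (adjusted p = 0.177). Treated KO males lay close together at 1431, 1379.6, 1416 and 1403 CPM. The rise with SC-435 in KO males was called (log2 fold change 0.77, standard error 0.19, adjusted p = 0.0245). It depended on the mice in the fit, with an adjusted p of 0.00636 and a log2 fold change of 0.61 without KO replicate 4, while 5 of the 8 fits that left out 1 mouse lost the call. Of the 3266 words of 50 bases in *Glul* transcripts, 11.9% also occur in another gene, mainly the pseudogene *Glns-ps1*, so some of its reads may have been assigned there.

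*Slc1a2* (ENSMUSG00000005089, chr2:102658659-102790784, plus strand) encodes the glutamate transporter GLT-1, which takes glutamate into the same pericentral cells. WT females on chow had 194, 206, 182 and 199 CPM and KO females 96.6, 96.2, 104 and 170.5 CPM. KO replicate 4 was far above the other KO mice, but still below every WT mouse. The fall in KO mice was called (log2 fold change -0.75, standard error 0.18, adjusted p = 0.0212), and without KO replicate 4 it was -0.97 (adjusted p = 0.000201). The call was lost in 4 of the 8 fits that left out 1 mouse, with adjusted p up to 0.0716. Treated females had 330.1, 306, 263 and 301 CPM in WT and 212, 194, 248 and 251 CPM in KO mice. *Slc1a2* rose with SC-435 in both genotypes, in KO females (log2 fold change 0.96, standard error 0.19, adjusted p = 0.00924) and in WT females (log2 fold change 0.62, standard error 0.09, adjusted p = 0.00724), and no treated mouse overlapped the chow mice of its genotype. Treated KO females stayed below treated WT females (-0.40, adjusted p = 0.0295).

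Male *Slc1a2* levels were 165, 196, 231 and 252 CPM in WT and 122, 139, 135 and 72.9 CPM in KO mice on chow, without overlap. The difference was not called in the fit of all 8 mice (log2 fold change -0.82, standard error 0.24, adjusted p = 0.151) and was called without WT replicate 1 (-0.94, adjusted p = 0.0383). SC-435 raised *Slc1a2* in KO males, to 232, 249, 237 and 226 CPM (log2 fold change 1.01, standard error 0.18, adjusted p = 0.00838), and by 0.84 without KO replicate 4 (adjusted p = 0.000372). In treated males the levels were 236 ± 52.8 CPM in WT and 236 ± 9.65 CPM in KO mice (SD, n = 4, -0.00, adjusted p = 0.996).

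*Oat* (ENSMUSG00000030934, chr7:132557478-132576398, minus strand) encodes ornithine aminotransferase, the mitochondrial enzyme that turns ornithine into glutamate semialdehyde on the way to glutamate. Its genotype difference in females on chow was not called, at 699, 1118, 1045 and 1385 CPM against 1587, 1106, 894 and 719.6 CPM in WT females (log2 fold change -0.03, standard error 0.26, adjusted p = 0.951), and its sign turned under 4 of 9 alternative settings, with values up to 0.36. With SC-435 the levels were 2339, 2898, 2327 and 2644 CPM in WT and 1867, 2186, 2612 and 1835 CPM in KO females. All 8 treated females were above all 8 on chow. *Oat* rose in WT (log2 fold change 1.24, standard error 0.21, adjusted p = 0.0153) and in KO females (log2 fold change 1.0, standard error 0.20, adjusted p = 0.00989), and the interaction that compares both effects was not called (log2 difference -0.24, standard error 0.31, adjusted p = 0.722), which does not show that they were equal.

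*Oat* had the largest called change of the 10 genes in males. KO males rose from 763, 1039, 867 and 592 CPM on chow to 2264, 2381, 2809.6 and 2309 CPM on SC-435 (log2 fold change 1.59, standard error 0.18, adjusted p = 0.00125), a 3-fold higher level. Without KO replicate 4 the log2 fold change was 1.46 (adjusted p = 0.000339). In WT males the levels were 1779, 897, 835 and 1280.1 CPM on chow and 2557, 1931, 2129.6 and 1228 CPM with SC-435, the groups overlapped and the change was not called (log2 fold change 0.71, standard error 0.32, adjusted p = 0.828). Without WT chow replicate 1 the fold change was 0.97 (adjusted p = 0.0904). Treated KO mice were above WT mice on chow in females (log2 fold change 0.98, standard error 0.22, adjusted p = 0.0127), and in males the difference was not called (log2 fold change 1.04, standard error 0.25, adjusted p = 0.195) unless WT replicate 1 was left out (1.29, adjusted p = 0.00161). Across the 8 groups the mean of *Oat* ranged from 815 CPM in KO males on chow to 2552 CPM in WT females on SC-435, the widest range among the 10 genes at 1.67 on the log2 scale. The 4 SC-435 groups held the 4 highest means, and among neighbours in the order of means a single gap, between WT males on SC-435 and WT males on chow, exceeded the larger SD of its pair.

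**Figure D2:**
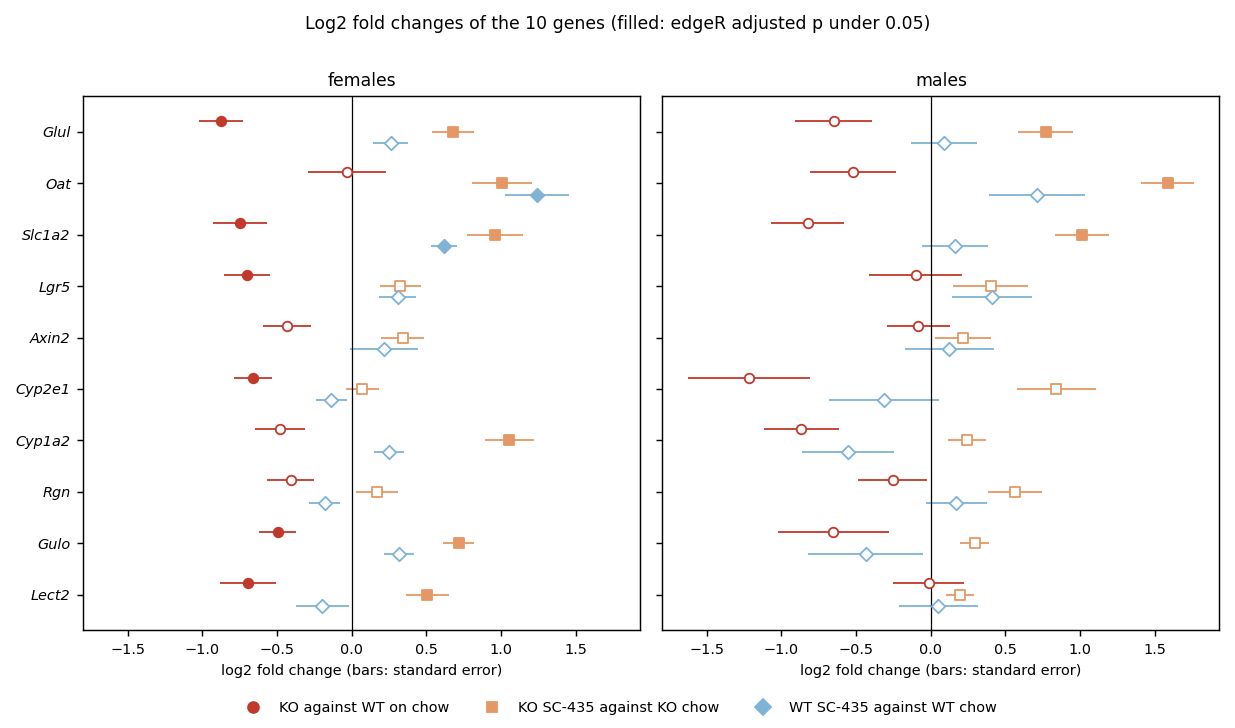
Log2 fold changes with standard errors of the 10 genes for 3 comparisons in females (left) and males (right). Filled symbols passed an edgeR adjusted p under 0.05. Red circles (KO against WT on chow) lie left of 0 for all 10 genes in both sexes and orange squares (SC-435 against chow in KO mice) lie right of 0, and both use the chow-fed KO mice. Blue diamonds compare SC-435 with chow in WT mice.

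Of 11 other genes of glutamine and ornithine handling, *Aldh18a1*, which makes proline and ornithine precursors from glutamate, rose in KO females on chow (0.99, adjusted p = 0.0114) and *Glud1*, glutamate dehydrogenase, fell (-0.35, adjusted p = 0.0482). With SC-435 in KO females 3 rose and 1 fell, and *Aldh18a1* was the one that fell (-0.73, adjusted p = 0.0292). *Odc1*, which decarboxylates ornithine to start polyamine synthesis, rose in treated KO females (0.61, adjusted p = 0.0345), as did the proline-catabolic enzyme *Aldh4a1* (0.50, adjusted p = 0.0286). In KO males 2 rose and *Aldh18a1* fell (-1.52, adjusted p = 0.0363), by 0.94 without KO replicate 4 (adjusted p = 0.0306). The share of all genes called was 14.9% in KO females on chow, 17.8% with SC-435 in KO females and 17.2% in KO males.

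*Lgr5* (ENSMUSG00000020140, chr10:115450311-115587780, minus strand) encodes the R-spondin receptor that raises the sensitivity of pericentral cells to Wnt. It was among the least abundant of the 10 genes per length, at 0.935 RPKM over all 32 mice against 3067 RPKM for *Cyp2e1*, and was at 7.14, 5.94, 8.41 and 7.45 CPM in KO females on chow. WT females on chow were at 12.6, 10.8, 9.47 and 13.9 CPM, and the groups did not overlap. *Lgr5* fell in KO females on chow (log2 fold change -0.70, standard error 0.15, adjusted p = 0.014) and was also lower in KO than in WT females on SC-435, at 9.94, 7.3, 9.26 and 9.68 against 13.5, 14.6, 15.3 and 14.6 CPM (log2 fold change -0.68, standard error 0.10, adjusted p = 0.0041). Its difference between treated and chow-fed KO females was not called (log2 fold change 0.32, standard error 0.14, adjusted p = 0.133). Between treated KO females and WT females on chow the log2 fold change was -0.37 (adjusted p = 0.0995). Male KO and WT mice overlapped on either diet, as did treated and chow-fed KO males, with means of 7.7 ± 2.24 CPM in WT and 7.08 ± 2.21 CPM in KO mice on chow (SD, n = 4, -0.10, adjusted p = 0.898).

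*Axin2* (ENSMUSG00000000142, chr11:108920349-108950783, plus strand) encodes a scaffold of the complex that destroys beta-catenin and is itself a general Wnt target. It was not called in any of the 14 comparisons by edgeR with all mice. For SC-435 in KO females voom called it (0.41, adjusted p = 0.0278), and edgeR did so without KO chow replicate 1. In females on chow it was at 13.3, 13.8, 10.7 and 14.5 CPM in WT and 12.7, 8.69, 9.48 and 8.05 CPM in KO mice, with an overlap through KO replicate 1 (log2 fold change -0.43, standard error 0.16, adjusted p = 0.0966), and without that mouse the difference was called (-0.57, adjusted p = 0.0292). The largest spread was in treated WT females, 9.36 to 22 CPM, and no neighbours in the order of its 8 group means were farther apart than the larger of their SDs. *Axin2* and *Slc1a2* each overlap a gene annotated antisense, *Glul* and *Lgr5* each overlap a gene on the opposite strand, and whether the counting used strand is not given in the sources used here.

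Among Wnt genes outside the 10, the 3 endothelial ligands *Wnt2*, *Wnt9b* and *Rspo3* were called in 0 of the 14 comparisons by edgeR, with 0 of the 3 at an unadjusted p under 0.05 in KO against WT females on chow or with SC-435 in KO females. *Wnt9b* had an unadjusted edgeR p of 0.0065 in the female genotype by diet interaction (-1.36, adjusted p = 0.0974). It was 0.0233 with SC-435 in WT females (0.73), 0.032 between treated females (-0.81) and 0.0342 between WT sexes on chow (-1.26). *Wnt2* had 0.0345 in the male interaction (0.94). *Wnt2* was at 5.17 ± 0.87 CPM in WT and 4.47 ± 0.621 CPM in KO females on chow (SD, n = 4). Of 9 Wnt and R-spondin receptors, 0 were called in KO females on chow by edgeR (1 at an unadjusted p under 0.05), and *Lgr4*, a second R-spondin receptor, rose with SC-435 (0.37, adjusted p = 0.0252). Of 11 tested genes for beta-catenin, its destruction complex and its nuclear partners, 1 fell in KO females on chow, the co-activator *Bcl9l* (-0.33, adjusted p = 0.042). Treated KO females had higher *Tcf7*, a TCF/LEF factor (0.86, adjusted p = 0.00562), and lower *Apc*, part of the destruction complex (-0.25, adjusted p = 0.0261), 2 of the 11. The share of all genes called was 14.9% in KO females on chow and 17.8% with SC-435 in KO females. Counts for the receptors and these 11 genes were at or below about that share. Of 7 tested feedback inhibitors and targets, *Notum*, which inactivates Wnt proteins, fell in KO females on chow (-0.39, adjusted p = 0.016) and rose with SC-435 (0.40, adjusted p = 0.0073), and *Rnf43* and *Nkd1* rose with SC-435 as well. *Dkk3*, a divergent member of the Dickkopf family, went the other way, up in KO females (1.40, adjusted p = 0.0024) and down with SC-435 (-1.03, adjusted p = 0.00697). In KO males with SC-435, *Dkk3* fell (-1.51, adjusted p = 0.0367) and none of the other 6 was called by edgeR, with 17.2% of all genes called. Without KO replicate 4 that *Dkk3* call was lost (-1.12, adjusted p = 0.0589).

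*Cyp2e1* (ENSMUSG00000025479, chr7:140763739-140774987, plus strand), the cytochrome P450 that oxidizes ethanol and acetaminophen, was the most abundant of the 10 per length. Females on chow had 6827, 6401, 7669 and 8254 CPM in WT and 5137, 4946, 4199.7 and 4267 CPM in KO mice, without overlap, and the fall was called (log2 fold change -0.66, standard error 0.13, adjusted p = 0.00921). With SC-435 the KO females were at 4884, 4727, 5023 and 4794 CPM, within the range of the KO females on chow (log2 fold change 0.07, standard error 0.11, adjusted p = 0.704). *Cyp2e1* was lower in treated KO females than in treated WT females (log2 fold change -0.45, standard error 0.06, adjusted p = 0.00335) and than in WT females on chow (log2 fold change -0.59, standard error 0.10, adjusted p = 0.00296). No treated KO female reached the lowest WT female on either diet.

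In males *Cyp2e1* was at 17739, 6679, 7649.8 and 7645 CPM in WT and 4553, 5385, 4645 and 2071 CPM in KO mice on chow. WT replicate 1 was far above the other WT mice and KO replicate 4 far below the other KO mice, and the groups did not overlap. The genotype difference was not called (log2 fold change -1.22, standard error 0.41, adjusted p = 0.198). Without WT replicate 1 it was -0.80 (adjusted p = 0.131). Treated KO males were at 7525, 7526, 6989 and 7693 CPM, all above the KO males on chow. That difference missed the threshold with all mice (log2 fold change 0.84, standard error 0.26, adjusted p = 0.0556) and passed without KO replicate 4 (0.62, adjusted p = 0.00691). Whether the SC-435 effect on *Cyp2e1* in KO mice differs between the sexes was not tested.

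*Cyp1a2* (ENSMUSG00000032310, chr9:57676937-57683703, minus strand), the P450 that oxidizes caffeine and is a target of both beta-catenin and the aryl hydrocarbon receptor, was not called in females on chow. KO females on chow were at 402, 412, 447 and 653 CPM and WT females at 744, 587, 667 and 656 CPM. Replicate 4 of the KO mice lay within the WT range (log2 fold change -0.48, standard error 0.16, adjusted p = 0.0766), and without that mouse the difference was called (-0.65, adjusted p = 0.00403). SC-435 raised it in KO females to 847, 1073, 1077 and 968 CPM (log2 fold change 1.05, standard error 0.16, adjusted p = 0.00433), above all 8 females on chow. Treated WT females had 789, 880.1, 686 and 803 CPM, below every treated KO female except replicate 1. Treated KO females were above WT females on chow (log2 fold change 0.58, standard error 0.11, adjusted p = 0.00534).

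The genotype by diet interaction for *Cyp1a2* in females was the only one of the 10 called (log2 difference 0.80, standard error 0.20, adjusted p = 0.0421, with 2.64% of all genes called). It stayed called in 3 of the 16 fits that left out 1 mouse and was lost with hepatocyte scaling (0.58, adjusted p = 0.0521). In males *Cyp1a2* was at 467 to 646 CPM in KO and 1653, 869, 884 and 923 CPM in WT mice on chow, without overlap (log2 fold change -0.87, standard error 0.25, adjusted p = 0.145), and the difference was called without WT replicate 1 (-0.61, adjusted p = 0.0328). The difference between treated and chow-fed KO males was not called (log2 fold change 0.24, standard error 0.13, adjusted p = 0.197). Of 7 genes of the aryl hydrocarbon receptor pathway, 1 was called with SC-435 in KO females, the quinone reductase *Nqo1* (0.67, adjusted p = 0.0158). It was also the 1 called of 6 tested in KO males (0.89, adjusted p = 0.0175) and in WT females (0.67, adjusted p = 0.0421). The share of all genes called was 17.8% in KO females, 17.2% in KO males and 4.28% in WT females. *Cyp1a1*, the receptor's classical P450 target, was not called in KO females with SC-435 (0.29, adjusted p = 0.586), and 4.79% of the 50-base words of *Cyp1a2* transcripts are shared with it.

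*Gulo* (ENSMUSG00000034450, chr14:65986786-66009207, minus strand) encodes the last enzyme of vitamin C synthesis, which mice retain. KO females on chow had 288, 368, 397 and 337 CPM against 542, 445, 510.3 and 449 CPM in WT females, without overlap (log2 fold change -0.50, standard error 0.12, adjusted p = 0.0252). With SC-435 KO females rose to 562, 550.1, 595 and 572 CPM, all above both groups on chow (log2 fold change 0.72, standard error 0.10, adjusted p = 0.00331). In males WT replicate 1 was at 1415 CPM and the other WT mice at 456 to 509 CPM, and the KO males at 378 to 469 CPM. Without that mouse the male genotype difference was -0.10 (adjusted p = 0.599) in place of -0.65. Treated KO males did not overlap KO males on chow, at 514 to 558 CPM (log2 fold change 0.29, standard error 0.10, adjusted p = 0.0633). Of 6 other genes of ascorbate synthesis and transport, 3 rose with SC-435 in KO females and the same 3 in KO males, *Slc23a1*, the ascorbate transporter (1.17, adjusted p = 0.0242 in females), *Ugdh*, which makes UDP-glucuronate (1.13, adjusted p = 0.000578), and *Akr1a1*, which reduces glucuronate (0.27, adjusted p = 0.046). In WT females 2 of the 6 rose with SC-435 as well, *Ugdh* (1.198, adjusted p = 0.00599) and *Slc23a1* (0.572, adjusted p = 0.019). The share of all genes called higher was 8.56% in KO females, 8.8% in KO males and 2.4% in WT females. In WT males 0 of the 6 were called, with 2 at an unadjusted p under 0.05 in edgeR. The genotype by diet interaction in females called 0 of the 6, with 1 at an unadjusted p under 0.05. In KO against WT females on chow 0 of the 6 were called by edgeR, with 1 at an unadjusted p under 0.05.

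*Lect2* (ENSMUSG00000021539, chr13:56542464-56548502, minus strand) encodes a secreted chemotactic protein of hepatocytes and a known beta-catenin target. Females on chow had 181, 121, 141 and 114 CPM in WT and 64, 94.3, 79.4 and 108 CPM in KO mice, without overlap (log2 fold change -0.70, standard error 0.19, adjusted p = 0.0334). SC-435 brought KO females to 124, 126, 129 and 110.1 CPM (log2 fold change 0.50, standard error 0.14, adjusted p = 0.0367). All 4 were above the KO females on chow, and 3 of them were within the range of WT females on chow. This rise was the least secure of the 6, since it was lost in 4 of 9 alternative settings and in 6 of 8 fits that left out 1 mouse. Male levels were 82.4 ± 28.1 CPM in WT and 79.4 ± 9.67 CPM in KO mice on chow (SD, n = 4, -0.01, adjusted p = 0.983). Between WT mice on chow *Lect2* was higher in females than in males by 0.75 on the log2 scale, which was not called (adjusted p = 0.294, with 1.49% of all genes called) and was called without male WT replicate 1 (1.01, adjusted p = 0.00667).

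*Rgn* (ENSMUSG00000023070, chrX:20549787-20562089, plus strand) encodes regucalcin, a calcium-binding gluconolactonase that acts just before *Gulo* in vitamin C synthesis. It was not called in any comparison by edgeR with TMM and all mice. In KO against WT females on chow voom called it lower (-0.40, adjusted p = 0.0326). KO females on chow spread from 784 to 1263 CPM and overlapped the WT range of 1206 to 1571 CPM through replicate 4 (log2 fold change -0.41, standard error 0.15, adjusted p = 0.102), and without that mouse the difference was -0.51 (adjusted p = 0.0313). In treated females the genotypes overlapped (-0.05, adjusted p = 0.691). KO males on SC-435 lay above all KO males on chow, at 1068 to 1272 against 499 to 935 CPM (log2 fold change 0.56, standard error 0.18, adjusted p = 0.0596). DESeq2, voom and hepatocyte scaling called that difference, and it passed in edgeR without KO replicate 4 (0.40, adjusted p = 0.0257).

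Side by side in females, *Glul*, *Slc1a2*, *Gulo* and *Lect2* were called both in KO against WT mice on chow and with SC-435 in KO mice. *Lgr5* and *Cyp2e1* were called in the first and missed the threshold in the second, *Oat* and *Cyp1a2* the reverse, and these differences between comparisons that share mice were not tested. In treated KO females against WT females on chow, *Cyp2e1* was lower and *Oat* and *Cyp1a2* were higher, with 16% of 15881 genes called. In treated KO against treated WT females, *Glul*, *Slc1a2*, *Lgr5* and *Cyp2e1* were lower, 4 of the 10, with 10.9% of 15869 genes called and 4.69% called lower. In WT females SC-435 raised *Oat* and *Slc1a2*, 2 of the 10, where 4.28% of 15739 genes were called and 2.4% were called higher. Groups did not overlap for 6 of the 10 in KO against WT females on chow (20.8% of all genes) and for 6 with SC-435 in KO females (21.9%). They did not overlap for 3 with SC-435 in WT females (13.4%), 4 between treated genotypes (18.4%) and 4 between treated KO and WT females on chow (21.8%).

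Under the stricter rule of the study, which also asks for a log2 fold change beyond 1, 0 of the 10 passed with edgeR in KO against WT females on chow, where 6.68% of all genes did. With SC-435, *Oat* and *Cyp1a2* passed in KO females (5.8% of all genes), *Oat* and *Slc1a2* in KO males (6.45%) and *Oat* in WT females (1.1%). The male comparisons of WT mice on either diet, of genotypes on SC-435 and of treated KO with WT mice on chow called 0 of the 10 in edgeR, with 0, 0 and 2 at an unadjusted p under 0.05. The share of all genes called was 0.0394%, 0.0324% and 0.208%. DESeq2 called 0, 0 and 1 there, with 1.35%, 1.16% and 2.68% of all genes, and voom called 2, 0 and 4, with 10.5%, 0.181% and 18.6%. Groups did not overlap for 0, 0 and 3 of the 10, against 7.1%, 5.35% and 10.1% of all genes. The male genotype by diet interaction called 0 of the 10 in edgeR (0.0906% of all genes), with 5 at an unadjusted p under 0.05, and 1 with voom (2.83%). Between WT females and WT males on chow, edgeR called 0 of the 10 (4 at an unadjusted p under 0.05), DESeq2 1 (4.29% of all genes) and voom 4 (17.1%), and 2 did not overlap, against 11.6% of all genes.

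**Figure D3:**
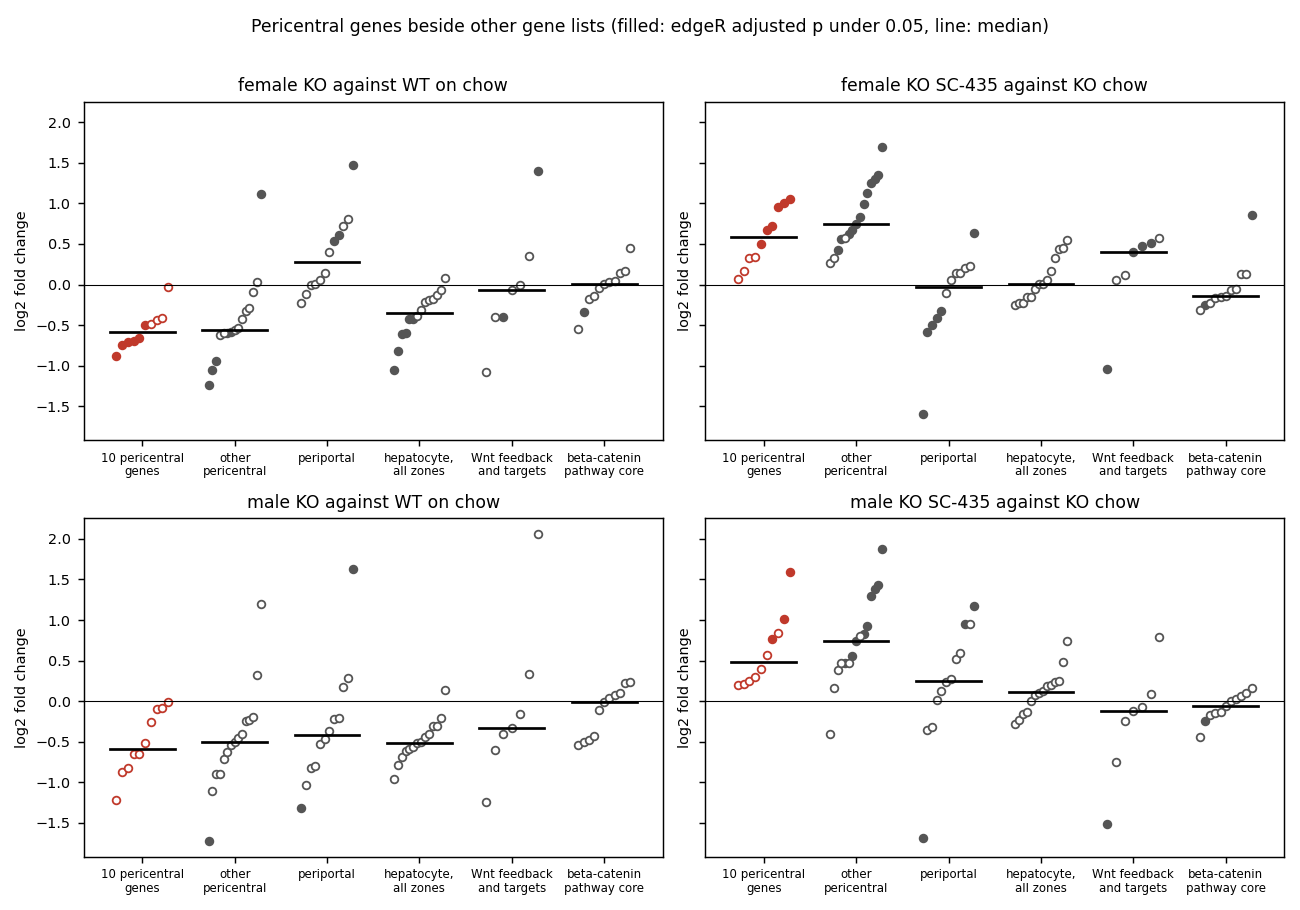
Log2 fold changes of single genes in 6 gene lists for KO against WT on chow (left) and SC-435 against chow in KO mice (right), females above and males below. Filled points passed an edgeR adjusted p under 0.05, and lines are medians. With SC-435 the median lies at 0.59 in females and 0.48 in males for the 10 genes (red), and at 0.75 and 0.74 for other pericentral genes.

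A second list of 15 pericentral genes was read alongside. In KO females on chow 5 fell and 1 rose, with a median of -0.56, and those that fell included *Nr1i3*, the nuclear receptor CAR (-1.24, adjusted p = 0.00509), and *Tbx3*, a transcription factor downstream of beta-catenin (-1.06, adjusted p = 0.00639). The 1 that rose was the glutathione transferase *Gstm3* (1.12, adjusted p = 0.0463). With SC-435 in KO females 12 of the 15 rose and 0 fell, with a median of 0.75. *Cyp2a5* (1.69, adjusted p = 0.0056) and *Rhbg*, an ammonium transporter (1.35, adjusted p = 0.00138), were the largest, followed by *Tbx3* (1.30, adjusted p = 0.00169). In KO males 9 rose and 0 fell (median 0.74), led by *Cyp2a5* (1.87, adjusted p = 0.00132), and without KO replicate 4 there were also 9 (median 0.62). In WT females 4 of 15 rose, including *Rhbg* (1.16, adjusted p = 0.00963). Of all genes, 5.05% were called lower and 9.83% higher in KO females on chow. The share called higher with SC-435 was 8.56% in KO females, 8.8% in KO males and 2.4% in WT females.

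Of 12 genes of periportal hepatocytes, at the other end of the lobule, 3 rose in KO females on chow and 0 fell, *Cdh1*, E-cadherin (1.48, adjusted p = 0.00159), *Hal*, histidine ammonia-lyase (0.61, adjusted p = 0.017), and *Cps1*, the entry enzyme of the urea cycle (0.53, adjusted p = 0.021). *Cdh1* is also expressed by cholangiocytes. With SC-435 in KO females 5 fell and 1 rose, with a median of -0.02, and *Cdh1* had the largest fall (-1.59, adjusted p = 0.001). In KO males 2 rose and 1 fell, and without KO replicate 4 there were 2 and 2. Of all genes, 14.9% were called in KO females on chow, 9.83% higher and 5.05% lower. With SC-435, 17.8% were called in KO females and 17.2% in KO males. Hepatocyte genes shared by all zones fell with genotype as well, 6 of 14 in KO females on chow, with a median of -0.35, including *Alb* (-0.82, adjusted p = 0.0125), and 0 of 14 were called by edgeR with SC-435 in KO females (6 at an unadjusted p under 0.05) or KO males (2), where 1 was called higher and 2 lower without KO replicate 4. Their summed level was 77117 to 97406 CPM in KO females on chow and 102144 to 115186 CPM in treated KO females. In WT females it was 116502 to 144507 CPM on chow and 100969 to 117477 CPM with SC-435. Treated KO females thus stayed below every WT female on chow, and in that comparison edgeR called 6 of the 14, against 16% of all genes. In KO males the ranges overlapped, at 68358 to 101911 CPM on chow and 83606 to 105316 CPM with SC-435.

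Markers of other liver cells moved in the same comparisons. In KO females on chow 7 of 10 measured cholangiocyte markers, 9 of 13 macrophage markers and 5 of 12 stellate cell markers rose and 0 fell, against 9.83% of all genes called higher. Of 12 endothelial markers 0 were called by edgeR there or with SC-435 in KO females, with 0 at an unadjusted p under 0.05 in either, and 4 rose with SC-435 in KO males (5 without KO replicate 4). The summed level of the cholangiocyte markers was at 97.2 to 134 CPM in WT and 196 to 364 CPM in KO females on chow, and at 166 to 212 CPM in treated KO females. Macrophage markers went from 294 to 316 CPM in WT females to 396 to 578 CPM in KO females and 239 to 361 CPM in treated KO females. Stellate markers summed to 346 to 452, 509 to 1146 and 458 to 552 CPM in the same groups. Among KO females on chow, replicate 4, which had the highest *Glul*, *Oat*, *Slc1a2*, *Cyp1a2*, *Rgn* and *Lect2* of its group, had the lowest cholangiocyte sum, 196 CPM, and the second lowest macrophage sum, 449 CPM. Replicate 1, with the lowest *Oat*, *Cyp1a2*, *Rgn*, *Gulo* and *Lect2*, had the lowest macrophage sum, 396 CPM. Among KO males on chow, replicate 4 had the lowest level of every one of the 10 genes except *Axin2* and *Lect2*, and the highest sums, with 1249 CPM for cholangiocyte and 806 CPM for macrophage markers, against 205 to 554 and 229 to 332 CPM in the other KO males. The part of these cells in the fall of the pericentral genes was not tested.

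The calls in KO against WT females depended on what the libraries were scaled to. When they were scaled to 14 hepatocyte genes in place of TMM, *Glul* alone of the 10 was called in KO against WT females on chow (-0.51, adjusted p = 0.0127). *Slc1a2* then had -0.39 (adjusted p = 0.0822), *Lgr5* -0.33, *Cyp2e1* -0.28, *Gulo* -0.11 and *Lect2* -0.31. That scaling moved the median of all genes from -0.02 to 0.36, a shift that all genes share. The median of the 10 moved from -0.58 to -0.20, and 0 of the 10 lay above the median of all genes under either scaling. The split of all called genes moved from 1593 higher and 818 lower with TMM to 5811 and 191. For SC-435 in KO females, *Glul*, *Oat*, *Slc1a2*, *Cyp1a2* and *Gulo* were called under both scalings, the median of all genes moved to -0.10 and the split from 1398 higher and 1508 lower to 1021 and 1746. In KO males with SC-435, 5 of the 10 were called with hepatocyte scaling, where *Cyp2e1* (0.76, adjusted p = 0.02) and *Rgn* (0.46, adjusted p = 0.027) joined the 3. The other gene lists were tested with TMM alone, and the fall of the 14 hepatocyte genes is removed by construction when they set the scale.

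**Figure D4:**
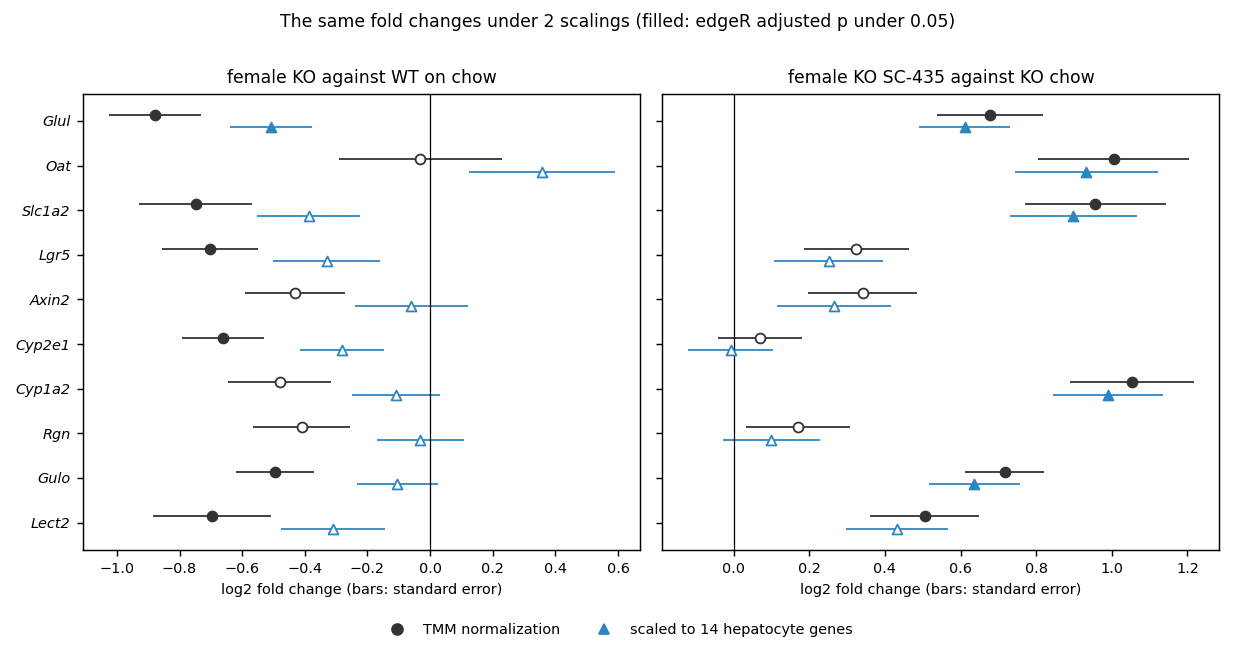
Log2 fold changes with standard errors of the 10 genes in females with TMM normalization (black circles) and with libraries scaled to 14 hepatocyte genes (blue triangles). Filled symbols passed an edgeR adjusted p under 0.05. In KO against WT mice on chow (left) the filled symbols drop from 6 to 1, and with SC-435 in KO mice (right) 5 genes are filled under both scalings.

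For the 6 genes whose 8 group means spanned more than 1 on the log2 scale, the most similar of 11725 other genes were found from the root mean square difference of centred log2 group means. *Rhbg* was nearest to *Oat* (0.158) and *Gm14296* next (0.189). The nearest to *Glul* were *Gm4756* (0.0779) and *Acat1* (0.0963), and to *Slc1a2* *Uck1* (0.0806) and *Txnrd3* (0.106). *Sp5*, a transcription factor known as a Wnt target, was nearest to *Cyp2e1* (0.134), followed by *Retsat* (0.142). *Klhdc8a* (0.0924) and *Mmd* (0.101) were nearest to *Lgr5*, and *Mn1* (0.14) and *Slc38a3* (0.144), a glutamine transporter, to *Cyp1a2*. These are likenesses over 8 group means that share mice between comparisons, with no test attached.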

How the data were processed

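Liver RNA was isolated with TRIzol, and poly(A) libraries were sequenced by Novogene. The table the authors deposited holds whole-number read counts per gene for 32 mice, without normalization. It also holds FPKM values and the authors' own fold changes and p-values, which were not used here. The submitters' processing notes name HISAT2 2.0.5, featureCounts 1.5.0-p3, DESeq2 1.20.0, GATK 4.1.1.0 and mm10, without saying what each did. Strand use is not given in the sources used here.

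Groups follow the labels for sex, genotype and diet. The labels start SC-435 at 3 weeks after weaning, whereas the study's methods describe the switch at weaning. Nothing says that replicates were other than separate mice, and the 48 pairs within groups differed beyond sampling noise (lowest chi-square per gene 20.3). Counts were filtered with filterByExpr and scaled by TMM. The groups compared were fitted with glmQLFit and tested with glmQLFTest (edgeR 4.0.16, R 4.3.3) in 14 comparisons, with Benjamini-Hochberg adjustment over all genes tested. All 10 members passed the filter in every comparison. Standard errors are the size of the log2 fold change divided by the square root of F. CPM and, between genes, RPKM with the deposited lengths were computed over all libraries. The procedure was tested on simulated data. The members and gene lists were chosen with earlier results of these data known. Of each list other than the 10, up to 3 called genes with the largest fold change per comparison are named. *Wnt2*, *Wnt9b*, *Rspo3*, *Cyp1a1* and, for SC-435, *Notum* were added after their values were seen. For each member whose group means span over 1 on the log2 scale, the 2 protein-coding genes with the most similar group means are named. Alternatives were median-of-ratios factors, library size only, hepatocyte genes as scale, DESeq2 1.42.0, voom with quality weights (limma 3.58.1), 2 filters, the replicate number as a block, 1 fit per sex and leaving out each mouse. After the data were seen, the other lists were also recomputed without KO replicate 4 or WT replicate 1 of the chow-fed males. Of 15 hepatocyte genes, 14 were in the table. P-values set the difference between groups against the spread between mice within groups. Positions are GRCm38, and gene bounds match GENCODE vM21 for all 10.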

Additional observations from a re-analysis of the deposited data

Results flagged for a closer look

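Within each of the 80 combinations of gene and group, the highest and the lowest of the 4 mice were compared with the rest by Dixon's test, which chance passes in about 1 of 20 groups. It marked 8. Of these, 4 were in replicate 1 of the chow-fed WT males, with *Glul* at 1809.6 CPM (other mice 1112 to 1231), *Cyp2e1* at 17739 CPM (6679 to 7650), *Cyp1a2* at 1653 CPM (869 to 923) and *Gulo* at 1415 CPM (456 to 509). In replicate 4 of the treated WT males, *Cyp2e1* was low at 5438 CPM (8767 to 8988), as was *Rgn* at 769.7 CPM (1110.5 to 1172). In replicate 4 of the female KO mice on chow, *Slc1a2* was high at 170.5 CPM (96.2 to 104). In replicate 4 of the male KO mice on chow, *Lect2* was high at 93.9 CPM (73.3 to 75.2). The causes were not tested.

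In females, the effect of SC-435 on *Cyp1a2* differed between genotypes, with a log2 difference of 0.80 and an edgeR adjusted p of 0.0421 for the interaction. The call was lost with hepatocyte scaling (adjusted p = 0.0521), with the replicate number as a block (adjusted p = 0.0616) and in 13 of 16 fits that left out 1 mouse. All 4 treated KO mice were above all 4 KO mice on chow, and treated WT mice overlapped WT mice on chow.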

How the results depend on the processing

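Scaling to hepatocyte genes changed the number of called members from 6 to 1 in KO against WT females on chow, from 2 to 5 for SC-435 in WT females, from 3 to 5 for treated KO against WT females on chow, from 1 to 0 for the female interaction, from 3 to 5 for SC-435 in KO males and from 0 to 1 for treated KO against WT males on chow. With this scaling, SC-435 in WT females had 961 of 15739 genes called higher and 143 lower, against 378 and 296 with TMM. Treated KO against WT females on chow had 5517 of 15881 called higher and 328 lower, against 1387 and 1159 with TMM. Library size alone gave 1 for that male comparison and 1 for WT females against WT males. DESeq2 gave 3 for KO against WT males on chow, 6 for SC-435 in KO males, 1 for treated KO against WT males on chow and 1 for WT females against WT males. Voom gave 3, 6, 4 and 4 for these, 3 for the female interaction, 2 for SC-435 in WT males and 1 each for the male interaction and the sex by genotype interaction. A single fit per sex gave 2 in place of 4 between treated females and 3 in place of 0 for KO against WT males on chow. The causes were not tested.

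Leaving out 1 mouse gave 2 to 8 called in KO against WT females on chow (2 without KO replicate 2, where 7.33% of all genes were called, and 8 without KO replicate 4, where 19.3% were), 5 to 6 for SC-435 in KO females, 1 to 2 for SC-435 in WT females (1 without treated replicate 4), 2 to 4 between treated females (2 without WT replicate 1 or KO replicate 2), 3 to 4 for treated KO against WT females on chow and 0 to 4 for the female interaction (4 without KO chow replicate 4, 9.57% of all genes). In males it gave 0 to 2 for KO against WT on chow and 0 to 4 for treated KO against WT on chow, where the highest values were without WT chow replicate 1 (7.3% and 12.2% of all genes called), and 2 to 6 for SC-435 in KO mice (5 without chow replicate 2, 18.9% of all genes, and 6 without chow replicate 4, 15%). WT females against WT males gave 0 to 3, the 3 without male replicate 1 (9.53% of all genes).

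The replicate numbers of the labels were not used to pair the mice in the main fits. Correlations of same-numbered deviations ran from -0.182 to 0.421 and no comparison had all 4 pairs over 0.1. Such correlations among 4 mice cannot exclude a pairing. In KO against WT males on chow every mouse correlated best with its own number, a hint from the data and not the design. With the number as a block, 4 in place of 6 members were called in KO against WT females on chow, 5 in place of 6 with SC-435 in KO females, 2 in place of 4 between treated females and 0 in place of 1 for the female interaction.

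No called member changed sign. Of 2580 values of single members under an alternative, 2432 stayed on the same side of the threshold, 81 passed it anew and 67 lost it. Members that were not called turned sign in some settings, as given for *Oat*. The effect of depth on single members was not tested.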
